A study of Mus musculus with 5 samples.

Results

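The DNA replication genes described here are 45 genes of the 55335 in the expression table. The choice was by name from their known roles, but was made with earlier results of these data known. They comprise 14 licensing genes, 22 replication fork genes, 5 genes of nucleotide supply and 4 genes of chromatin and histone supply. All 45 had a level of 1 TPM or more in 2 or more libraries, TPM being a length-normalized share of a library's transcripts, and so were among the 13981 genes tested. The libraries were made from hematopoietic stem cells (HSCs), sorted as Kit+ Sca-1+ lineage-negative (KSL) cells that were CD48- and CD150+, from the bone marrow of mice aged 3 weeks. There were 3 wild-type libraries and 2 libraries from RankCre-ki mice, which carry Cre at 1 allele of the Rank (Tnfrsf11a) locus together with 1 floxed and 1 null allele of the Csf1 receptor gene Csf1r, and the question was how HSCs differ where embryonic macrophages are missing. All mice were labelled C57BL/6J, although the study's methods state that the Csf1r null line was kept on C3H/HeJ, so the genotype may carry some of that background. The Cre acts in embryonic macrophages and not in the HSCs themselves, and each library came from a pool that its name gives as 80 to 90 cells.

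DNA replication begins with licensing, in which the origin recognition complex (ORC), Cdc6 and Cdt1 load the MCM helicase onto DNA before S phase. Cdc45 and the GINS complex then turn the helicase on, and the clamp Pcna, its loader RFC, the single-strand binding protein RPA and the polymerases carry out synthesis at the fork. HSCs of adult marrow are mostly quiescent, whereas those of very young mice still divide, and many replication genes are transcribed under E2F factors as cells enter S phase.

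The promoters of 4 MCM genes show how a class that works as 1 ring can differ in its upstream letters. Windows of 160 bases are given, 5′ to 3′ on the gene's strand, from RefSeq on GRCm38.p6, and capitals mark E2F letters (TTTGGCGC, TTTCCCGC, TTTCGCGC or TTTGCCGC) or CCAAT boxes, each searched on both strands. They are Mcm2 at chr6:88898781-88898940 (minus strand), Mcm3 at chr1:20820313-20820472 (minus), Mcm5 at chr8:75109349-75109508 (plus) and Mcm6 at chr1:128359706-128359865 (minus).
Mcm2: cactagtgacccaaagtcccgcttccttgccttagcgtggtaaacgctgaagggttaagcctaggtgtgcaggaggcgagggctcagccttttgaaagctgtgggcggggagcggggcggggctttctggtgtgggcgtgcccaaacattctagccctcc
Mcm3: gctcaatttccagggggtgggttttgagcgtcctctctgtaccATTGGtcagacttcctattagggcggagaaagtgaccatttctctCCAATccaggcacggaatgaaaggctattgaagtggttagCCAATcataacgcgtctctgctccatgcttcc
Mcm5: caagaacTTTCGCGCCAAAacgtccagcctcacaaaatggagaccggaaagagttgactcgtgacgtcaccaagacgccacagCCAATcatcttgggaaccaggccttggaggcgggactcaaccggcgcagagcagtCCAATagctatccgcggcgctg
Mcm6: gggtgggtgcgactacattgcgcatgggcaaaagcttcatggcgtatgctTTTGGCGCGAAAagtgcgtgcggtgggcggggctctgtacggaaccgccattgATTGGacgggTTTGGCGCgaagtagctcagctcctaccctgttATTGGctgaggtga
The Mcm6 window held 3 E2F matches, 2 of which overlap on opposite strands, and 2 CCAAT boxes. In Mcm5 there were 2 E2F matches, which overlap, and 2 CCAAT boxes, whereas the Mcm3 window held 3 CCAAT boxes and no E2F match. The Mcm2 window held neither.

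Over the 250 bases before the start, a RefSeq promoter was given for 39 of the 45 members. E2F letters stood in the promoters of 10 of these 39 genes (25.6%), against 3.91% of the tested genes and 2.16% of all genes with a promoter. Licensing genes held them in 6 of 13 (46.2%), fork genes in 3 of 17 (17.6%), and none of the 5 nucleotide supply genes did. CCAAT boxes were found for 25 of 39 members (64.1%) and for 41.0% of the tested genes. A match describes letters and does not show binding.

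The libraries differed in ways that touch these genes. Between 9021 and 16386 genes reached 1 TPM, with 9021 to 11084 in the wild-type and 12801 and 16386 in the RankCre-ki libraries. The median log2 difference of all tested genes was 0.52 in favor of RankCre-ki. Wild-type 1 stood apart, because it held the lowest value of 27 of the 45 members, as of 29.8% of all tested genes, and listed 4 members at 0. The library names fall into 2 number series, with wild-type 1 and RankCre-ki 2 in series 1 and the other 3 libraries in series 2, and Y-linked Eif2s3y was found at 41.6 and 62.5 TPM in the series 1 libraries and at 0 to 0.288 TPM in series 2. RankCre-ki 2 is nevertheless labelled female. The study's methods describe 2 tagmentation procedures, 1 for a single library of each genotype and 1 for the other 3 libraries, which matches the make-up of the series, although the labels give 1 kit for all and do not say which library had which. Series, preparation and sex cannot be told apart. Csf1r measured 2.39, 0 and 0.234 TPM in wild-type 1 to 3 and 17.5 and 6.46 TPM in RankCre-ki 1 and 2. This order is opposite to that of losing 1 allele, and whether the null allele still gives mRNA is not given in the sources used here, so the groups are named by their labels. The HSC markers summed to 567 to 1151 TPM in wild-type and to 938 and 1682 TPM in RankCre-ki libraries, and the gated-out marker Cd48 was at 0 throughout wild-type but at 4.92 and 5.62 TPM in RankCre-ki HSCs.

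No replication gene passed the test. With limma on log2(TPM + 1), 0 of 45 members reached an adjusted p of 0.1 with an absolute log2 fold change above 2, as did 0.0% of all tested genes, and 0 reached an unadjusted p of 0.05, which 6.87% of all tested genes did. The lowest adjusted p of a member was 0.747. Of the members, 31 (68.9%) lay higher in RankCre-ki HSCs, near the 72.3% of all tested genes, and 22 of 45 (48.9%) did when libraries were scaled by their median ratios, against 59.1% of all tested genes under that scaling. Without wild-type 1, 17 of 45 (37.8%) were higher, against 66.2% of all tested genes. Other settings went the other way, with 64.4% of members against 46.7% of all tested genes under quantile normalization. Without RankCre-ki 2 the shares were 82.2% and 67.4%. In the main fit the median log2 difference of the members was 0.38 against the 0.52 of all tested genes. In 7 members (15.6%) both RankCre-ki values exceeded every wild-type value, against 18.8% of all tested genes, and in 2 members (4.44%) both fell short of every wild-type value, against 3.71%. Both shares were close to the background. Without wild-type 1, 7 members (15.6%, against 29.6% of all tested genes) lay above and 13 (28.9%, against 12.3%) below every remaining wild-type value. The labels do not say whether libraries came from separate animals, so p-values measure the spread between these libraries only. In such pools a difference in the number of cycling cells and one in RNA per cell cannot be told apart.

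**Figure D1:**
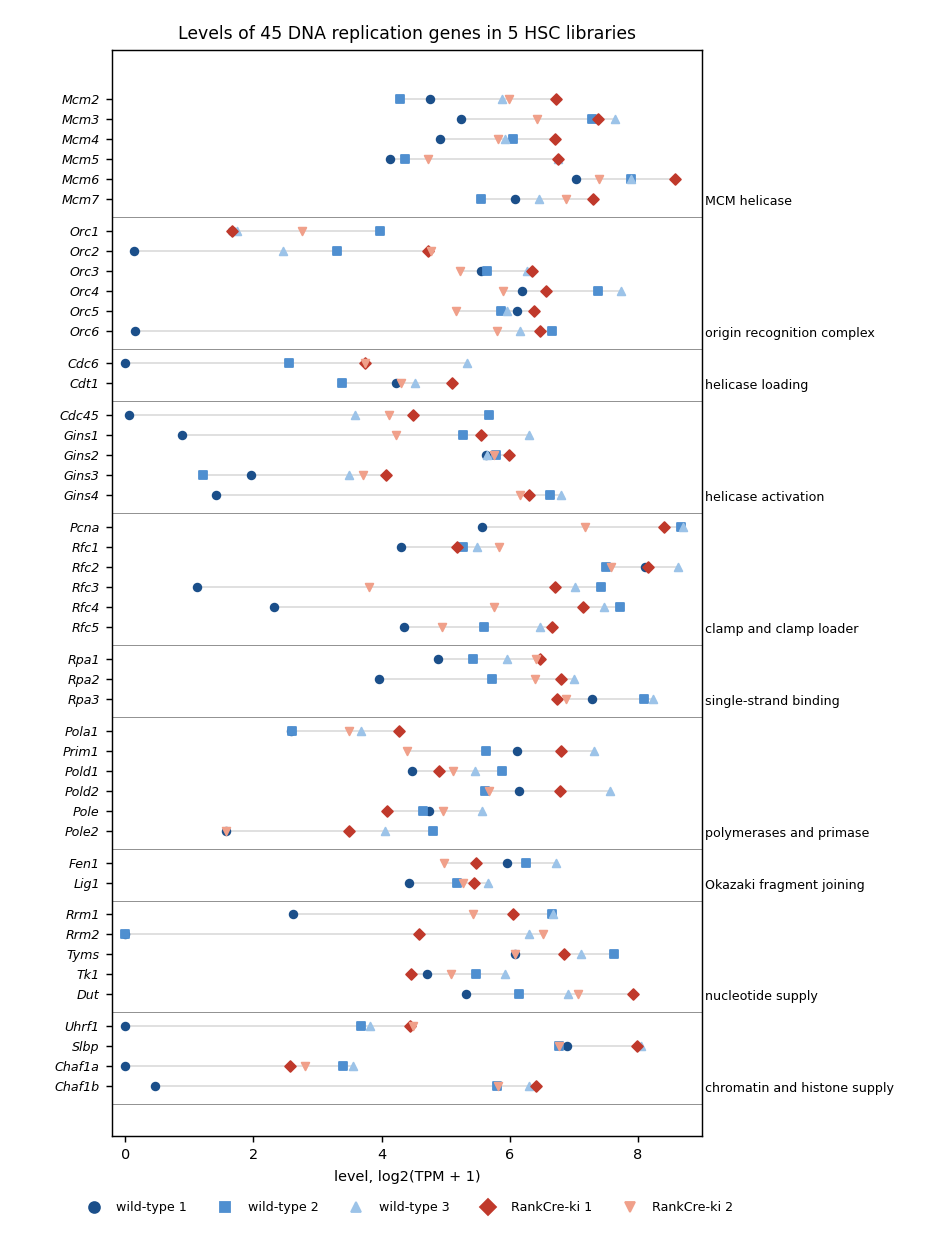
Level of each of the 45 replication genes, as log2(TPM + 1) on the horizontal axis, in the 5 libraries (blue symbols wild-type, red symbols RankCre-ki), ordered by role. The dark blue circles of wild-type 1 lie at the left end for 27 genes, among them Orc6, Rfc4 and Chaf1b, and the RankCre-ki symbols lie beyond all 3 wild-type symbols in 9 genes.

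All 6 MCM genes, which encode the subunits of the replicative helicase ring, had a positive log2 difference, from 0.18 for Mcm3 to 1.39 for Mcm2. So had 72.3% of all tested genes. The MCM median lay 0.13 above the 0.52 of all tested genes, and Mcm3 (by 0.34) and Mcm6 (by 0.13) lay below it. Mcm2 measured 26.0, 18.4 and 57.8 TPM in wild-type 1 to 3 and 104 and 62.8 TPM in RankCre-ki 1 and 2. Mcm7 measured 66.7, 46.1 and 87.3 TPM in wild-type and 157 and 116 TPM in RankCre-ki HSCs. In both genes the groups did not overlap, and Mcm2 was separated by only the gap between wild-type 3 and RankCre-ki 2. The log2 difference was 1.39 ± 0.70 (SE) for Mcm2 (limma, unadjusted p = 0.0848, adjusted p = 0.849) and 1.05 ± 0.53 for Mcm7 (unadjusted p = 0.0820, adjusted p = 0.839), the latter being 0.61 under median-ratio scaling. Mcm6, the most abundant subunit in every library, was at 129, 236 and 237 TPM in wild-type and at 382 and 167 TPM in RankCre-ki HSCs, where the groups overlapped. Mcm3 was at 36.9, 154 and 199 TPM in wild-type and at 165 and 84.9 TPM in RankCre-ki HSCs, both inside the wild-type range. Mcm4 was at 29.1, 65.4 and 59.7 TPM against 103 and 55.1 TPM. Mcm5 was at 16.5, 19.7 and 107 TPM against 107 and 25.6 TPM, and both genes overlapped between the groups. The subunits of 1 ring were thus not even in mRNA level, and the highest exceeded the lowest by 3.70-fold in RankCre-ki 1 and by 12.8-fold in wild-type 2.

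The ORC genes, whose products mark origins, did not share a direction, with 2 of 6 higher and 4 lower in RankCre-ki HSCs. Orc2, a core subunit, measured 0.0992, 8.94 and 4.54 TPM in wild-type and 25.5 and 26.2 TPM in RankCre-ki HSCs. It was the only ORC gene whose groups did not overlap, with a log2 difference of 2.77 ± 1.35 (limma, unadjusted p = 0.0734, adjusted p = 0.809). Exons of Orc2 share 29.8% of their bases with Nif3l1 on the other strand, and that gene measured 14.5, 70.4 and 40.2 TPM in wild-type and 29.9 and 27.0 TPM in RankCre-ki HSCs. The 3 wild-type libraries had the same order in both genes, and Nif3l1 lay within its wild-type range in RankCre-ki HSCs. The part of shared reads in Orc2 was not tested. Orc4, the most abundant ORC gene, was at 71.7, 166 and 212 TPM in wild-type and 93.9 and 58.6 TPM in RankCre-ki HSCs, a log2 difference of -0.87 ± 0.61 (unadjusted p = 0.191, limma adjusted p = 0.903). Wild-type 1 alone kept its groups from separating, and the log2 difference of Orc4 was -1.33 without that library, -0.55 without wild-type 3, -0.53 without RankCre-ki 2 and -1.31 under median-ratio scaling. Orc1, the subunit whose level is known to follow the cell cycle, was the lowest of the 6 by mean, at 2.16, 14.7 and 2.34 TPM against 2.19 and 5.80 TPM. Orc6 was at 0.110, 99.7 and 70.2 TPM in wild-type and at 87.4 and 54.8 TPM in RankCre-ki HSCs, and wild-type 1 was far below the other 4 libraries. Orc3 was at 46.0, 49.3 and 76.5 TPM against 80.8 and 36.4 TPM. Orc5 was at 67.9, 57.6 and 61.1 TPM against 82.1 and 34.6 TPM. In both the RankCre-ki libraries stood on either side of the wild-type range.

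The helicase loaders overlapped as well. Cdc6 was listed at 0, 4.91 and 39.2 TPM in wild-type and at 12.4 TPM in both RankCre-ki libraries, inside the wild-type range. Cdt1, the partner that geminin inhibits, was at 17.7, 9.39 and 22.0 TPM in wild-type and at 33.1 and 18.8 TPM in RankCre-ki HSCs.

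Helicase activation genes all had a positive log2 difference, as had 72.3% of all tested genes, but wild-type 1 was near 0 in several. Cdc45 was at 0.0448, 50.0 and 11.0 TPM in wild-type and at 21.6 and 16.4 TPM in RankCre-ki HSCs. Gins4, the most abundant of the 5, was at 1.66, 97.9 and 111 TPM against 77.8 and 70.3 TPM. In both, the RankCre-ki values fell inside the wild-type range. Gins3, at 2.91, 1.32 and 10.3 TPM in wild-type and 15.7 and 12.1 TPM in RankCre-ki HSCs, was the 1 gene of this role without overlap. Gins2 was the steadiest, at 48.3, 54.2 and 49.2 TPM against 62.8 and 53.2 TPM, but 67.3% of its exon bases are shared with Gse1 on the other strand. Gins1 ranged from 0.843 TPM in wild-type 1 to 77.6 TPM in wild-type 3.

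Among clamp and clamp loader genes, Pcna, which tethers polymerases to DNA, was at 46.3, 407 and 417 TPM in wild-type and at 339 and 143 TPM in RankCre-ki HSCs. Its mean was 289.8 ± 211 TPM (SD, n = 3) against 241 ± 139 TPM (SD, n = 2), and both series 1 libraries lay below all series 2 libraries. Rfc3 and Rfc4 had the same order, with 1.18 and 3.98 TPM in wild-type 1, 13.0 and 53.2 TPM in RankCre-ki 2, and 103 to 210.1 TPM in series 2. Rfc1, Rfc2 and Rfc5 overlapped between genotypes, from 18.7 TPM for Rfc1 in wild-type 1 to 393 TPM for Rfc2 in wild-type 3.

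The 3 RPA genes, which encode a single trimer, went different ways. Rpa1, the large subunit, was at 28.5, 42.0 and 61.2 TPM in wild-type and at 87.7 and 84.0 TPM in RankCre-ki HSCs, without overlap. Rpa3, the small subunit, was at 155, 274 and 300.5 TPM in wild-type and at 106 and 116 TPM in RankCre-ki HSCs, without overlap in the other direction. The log2 difference of Rpa3 was -1.07 ± 0.48, or -1.58 relative to the median of all tested genes, and its p was the lowest of all members (limma, unadjusted p = 0.0560, adjusted p = 0.747). Rpa2, which ranged from 14.6 to 127 TPM, overlapped between the groups.

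Polymerase and primase genes were lower in RankCre-ki HSCs in 5 of 6, with none outside the wild-type range in both libraries. Pold2, a subunit of polymerase delta and the most abundant of them, was at 69.5, 47.9 and 187 TPM in wild-type and at 109 and 50.0 TPM in RankCre-ki HSCs. Prim1, the catalytic primase subunit, was at 68.3, 48.7 and 157 TPM against 111 and 20.0 TPM. Its log2 difference of -0.75 ± 0.85 (limma, unadjusted p = 0.401, adjusted p = 0.961) turned to 0.45 without RankCre-ki 2. The other 4, Pola1, Pold1, Pole and Pole2, ranged from 1.97 TPM for Pole2 in RankCre-ki 2 to 57.8 TPM for Pold1 in wild-type 2.

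Of the Okazaki fragment genes, the flap nuclease gene Fen1 was at 61.2, 74.9 and 104 TPM in wild-type and at 43.5 and 30.5 TPM in RankCre-ki HSCs, without overlap. Its log2 difference was -1.08 ± 0.57 (limma, unadjusted p = 0.0955, adjusted p = 0.866). Of its exon bases, 78.8% are shared with the antisense gene Gm10143, which stayed at or below 2.18 TPM. Tmem258 on the other strand shares 5.37% and was more abundant than Fen1. It was at 719, 396 and 330 TPM in wild-type and at 283 and 325 TPM in RankCre-ki HSCs, also lower without overlap. The part of shared reads in Fen1 was not tested. The ligase gene Lig1 overlapped, at 20.5 to 49.7 TPM.

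**Figure D2:**
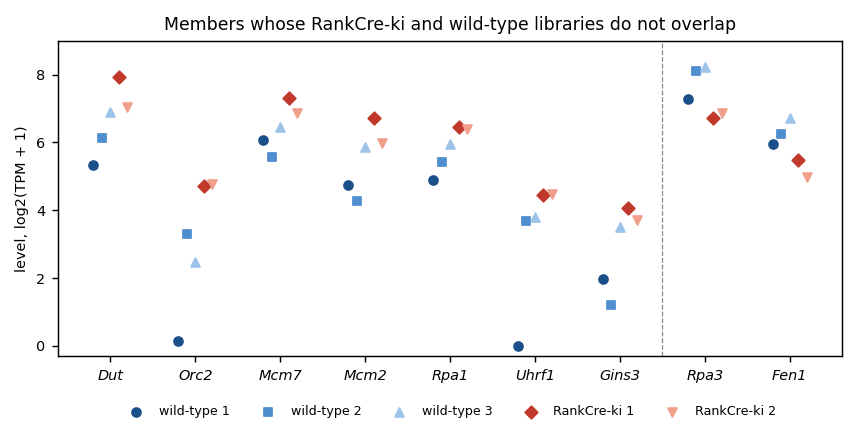
Levels, as log2(TPM + 1), of the 9 members whose 2 RankCre-ki libraries (red) lay above (left of the dashed line) or below (right of it) all 3 wild-type libraries (blue). The gap between the groups is narrower than the wild-type range in all 9, as in Mcm2, where wild-type 3 had 57.8 TPM and RankCre-ki 2 had 62.8 TPM.

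The non-overlapping genes are spread over the genome. On GRCm38 (GENCODE M21) Mcm2 lies at chr6:88883474-88898780, Mcm7 at chr5:138164583-138172422, Orc2 at chr1:58462771-58505109 and Gins3 at chr8:95633453-95645060. Rpa1 lies at chr11:75298166-75348324, Dut at chr2:125247190-125258608 and Uhrf1 at chr17:56303321-56323486, and the lower pair, Rpa3 and Fen1, at chr6:8255936-8259173 and chr19:10199132-10204169.

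In nucleotide supply, Dut, which removes dUTP and so keeps uracil out of DNA, had the lowest p of the members that were higher. It was at 39.1, 69.7 and 119 TPM in wild-type and at 241 and 132 TPM in RankCre-ki HSCs, a mean of 76.0 ± 40.4 TPM (SD, n = 3) against 187 ± 76.7 TPM (SD, n = 2). The log2 difference was 1.36 ± 0.62 (limma, unadjusted p = 0.0591, adjusted p = 0.756). Of the ribonucleotide reductase genes, Rrm1 was at 5.13, 101 and 101 TPM in wild-type and at 65.2 and 42.1 TPM in RankCre-ki HSCs. Rrm2, the subunit made in S phase, was listed at 0 in wild-type 1 and 2, at 77.8 TPM in wild-type 3, and at 23.0 and 90.8 TPM in RankCre-ki HSCs. Both genes overlapped, and Rrm2 was the least even member within wild-type. Thymidylate synthase (Tyms) was at 67.1, 197 and 137 TPM against 114 and 66.5 TPM. Thymidine kinase (Tk1) was at 25.2, 43.3 and 59.5 TPM against 20.9 and 33.1 TPM, so both pyrimidine genes stood within or below the lower part of the wild-type range in RankCre-ki HSCs, without separating.

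The 4 chromatin and histone supply genes had positive log2 differences, as had 72.3% of all tested genes, and only Uhrf1 had no overlap. Uhrf1, which brings Dnmt1 to newly copied DNA, was listed at 0, 11.9 and 13.1 TPM in wild-type and at 20.7 and 21.4 TPM in RankCre-ki HSCs. Slbp, the histone mRNA binding protein gene and the most abundant of the 4, was at 118, 108 and 265 TPM against 252 and 108 TPM. For the large chromatin assembly subunits, Chaf1a was at 0, 9.58 and 10.8 TPM against 4.92 and 5.96 TPM, and Chaf1b at 0.385, 54.7 and 77.8 TPM against 84.4 and 55.4 TPM. In both Chaf1 genes wild-type 1 alone was below 1 TPM, and without it both RankCre-ki values of Chaf1a lay below both wild-type values whereas those of Chaf1b overlapped. Of the Chaf1a exon bases, 52.5% are shared with Ubxn6.

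Licensing and fork genes were then compared. The median log2 difference was 0.64 over the 14 licensing and 0.23 over the 22 fork genes, against 0.52 for all tested genes. The summed level of licensing genes was 510.3, 950 and 1236 TPM in wild-type and 1435 and 760 TPM in RankCre-ki HSCs, and that of fork genes 891, 1983 and 2611 TPM against 1907 and 1153 TPM. Both sums overlapped between genotypes. Their ratio within a library, which no scaling of that library alters, was 0.573, 0.479 and 0.474 in wild-type and 0.753 and 0.659 in RankCre-ki HSCs and did not overlap. The mean ratio was 0.509 ± 0.0559 (SD, n = 3) against 0.706 ± 0.0663 (SD, n = 2), 1.39-fold higher in RankCre-ki HSCs. No test is given, because 3 against 2 libraries were available and the ratio was defined with results known.

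The difference in ratio lay with the MCM genes. MCM to fork ratios were 0.342, 0.272 and 0.287 in wild-type and 0.534 and 0.444 in RankCre-ki HSCs (1.63-fold), whereas ORC to fork ratios were 0.211, 0.200 and 0.163 against 0.195 and 0.188 and overlapped. Leaving out Pcna and Rfc2, the most abundant fork genes, gave 0.898, 0.680 and 0.686 against 1.12 and 0.927 (1.35-fold). A few abundant genes weigh most in a sum, and the difference of the median log2 levels of licensing and fork genes, which weighs genes evenly, was 0.44, -0.05 and -0.33 in wild-type and 0.37 and 0.32 in RankCre-ki HSCs and overlapped. Within series 1 the ratio was 1.15-fold and within series 2 it was 1.58-fold higher in RankCre-ki HSCs. The median log2 difference of licensing minus fork genes was -0.029 within series 1 and 0.74 within series 2, so its direction was not shared by the series.

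**Figure D3:**
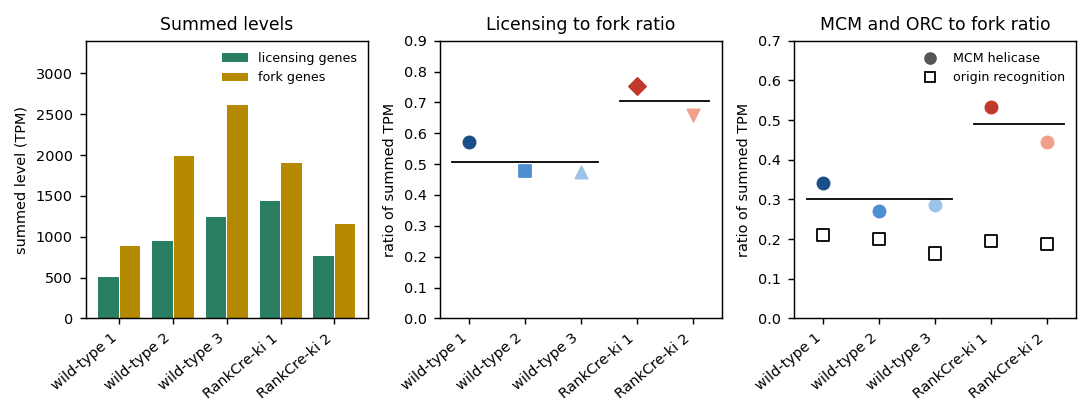
Left, summed TPM of the licensing and fork genes in each library. Middle, their ratio in each library (lines, group means). Right, the ratio of MCM genes (filled circles, lines at group means) and of ORC genes (open squares) to fork genes. The RankCre-ki ratios of 0.753 and 0.659 lie above the highest wild-type ratio of 0.573, and the ORC squares lie level at 0.163 to 0.211.

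The comparison was repeated within each name series. In series 1, from wild-type 1 to RankCre-ki 2, 34 of 45 members were higher (75.6%, against 64.4% of all tested genes), with a median log2 difference of 0.90 against 0.53. In series 2, from the mean of wild-type 2 and 3 to RankCre-ki 1, 25 were higher (55.6%, against 65.6%), with a median of 0.09 against 0.40. The members thus stood above the median of all genes in series 1 and below it in series 2. The median was 0.85 in series 1 and 0.58 in series 2 for licensing genes, 0.87 and -0.17 for fork genes, 1.73 and -0.53 for nucleotide supply genes and 3.64 and 0.47 for chromatin and histone supply genes. Among the licensing genes, the MCM genes had medians of 0.85 and 0.95. Members higher in both series numbered 19 (42.2%, against 44.5% of all tested genes), and 5 were lower in both (11.1%, against 12.9%). With the series as a block, 3 of 45 members (6.67%) had an unadjusted p under 0.05, fewer than the 10.1% of all tested genes that did. In that fit the log2 difference of Dut had an unadjusted p of 0.0123 (limma, adjusted p = 0.256), that of Rpa3 a p of 0.0390 (limma adjusted p = 0.456) and that of Orc2 a p of 0.0488 (adjusted p = 0.494).

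**Figure D4:**
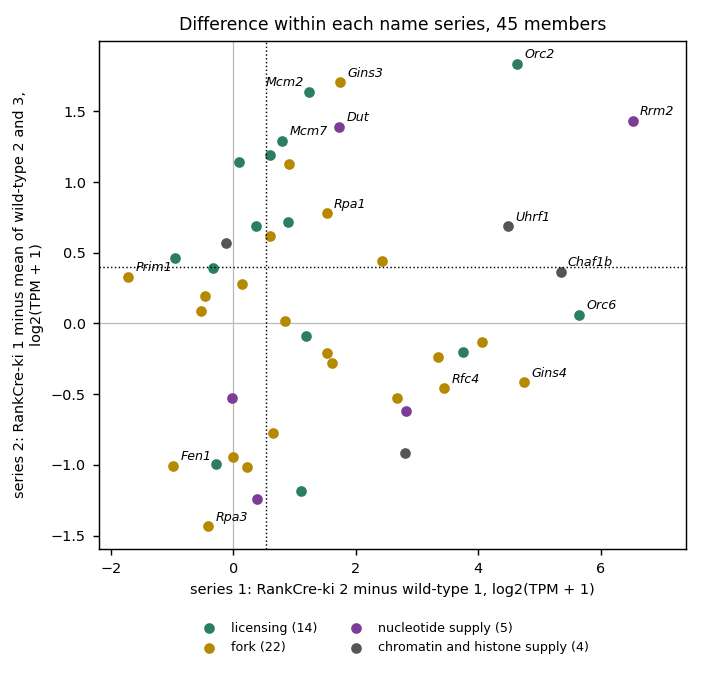
Log2(TPM + 1) difference of each member between RankCre-ki and wild-type libraries within series 1 (horizontal axis) and series 2 (vertical axis), colored by class, with dotted lines at the medians of all tested genes (0.53 and 0.40). Orc2, Dut, Mcm2 and Mcm7 lie at the upper right, Rpa3 and Fen1 at the lower left, and the genes far to the right, such as Orc6 and Chaf1b, are those near 0 TPM in wild-type 1.

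More members had a low p for the series than for the genotype. In the fit with both terms, 14 of 45 members (31.1%) had a series term at an unadjusted p under 0.05, against 20.0% of all tested genes, and all 14 were higher in series 2, a direction and threshold that 7.70% of all tested genes met. Rfc3, Pcna, Rfc4, Mcm3 and Mcm6 had the lowest p of these, and clamp and clamp loader genes supplied 4 of the 14. Without wild-type 1, 4 members met that threshold (8.89%, against 4.01% of all tested genes). Summed over all 45 genes the levels were 1655 and 2468 TPM in series 1 and 3528, 4708 and 4168 TPM in series 2.

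The rank order of the 45 genes was most alike between wild-type 3 and RankCre-ki 1 (Spearman's rho 0.871 across genes, which are not independent replicates) and least alike between wild-type 1 and wild-type 2 (0.551). The closest pair shares a series but not a genotype, and the least alike pair a genotype but not a series. The next closest pair was wild-type 2 and 3 (0.782), which share both. RankCre-ki 1 and 2 (0.753) followed and share only a genotype.

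Other genes of the pathway were listed by role. Of 46 other replication genes, 45 were tested. At an unadjusted limma p under 0.05, 2 were higher and 0 lower (4.44%, against 6.87% of all tested genes). The median log2 difference of this list was 0.37, against the 0.52 of all tested genes. The 2 genes at that p, Chtf8 and Chtf18, belong to an alternative clamp loader. Chtf8 was listed at 0, 0 and 0.587 TPM in wild-type and at 4.14 and 11.4 TPM in RankCre-ki HSCs (limma, unadjusted p = 0.0166, adjusted p = 0.532). Chtf18 was at 0.0137, 1.17 and 0.0662 TPM against 6.35 and 5.50 TPM (unadjusted p = 0.0315, limma adjusted p = 0.622). These were low levels, and neither passed the adjusted threshold. Dscc1, a further gene of that loader, overlapped between the groups, at 0.600, 0 and 31.0 TPM against 18.4 and 8.79 TPM. The folate enzyme gene Mthfd1 followed among the higher genes, at 0.00649, 17.8 and 8.35 TPM against 47.5 and 43.5 TPM. The histone chaperone gene Asf1a was at 125, 415 and 299 TPM in wild-type and at 98.7 and 113 TPM in RankCre-ki HSCs, and the polymerase epsilon subunit gene Pole3 at 106, 114 and 121 TPM against 74.3 and 52.8 TPM. Neither gene overlapped between the groups. Gmnn, which encodes geminin, was at 31.6, 192 and 63.0 TPM against 54.6 and 7.07 TPM and did overlap.

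Genes of the G1 to S transition and of mitosis were set beside these. Of 17 G1 to S genes 0 had an unadjusted limma p under 0.05, against 6.87% of all tested genes. Their median log2 difference was 0.41, against the 0.52 of all tested genes. The mitotic list had 17 of 20 genes tested, a median of 0.95 and 2 genes (11.8%, against 6.87% of all tested genes) higher at that p, which were Bub1 and Bub1b, named after their values were seen. The number of mitotic genes at 1 TPM or more was 4, 10 and 9 in wild-type and 15 and 19 in RankCre-ki libraries, where more genes of any kind reached 1 TPM as given above, whereas their summed level overlapped, at 72.5, 388 and 187 TPM against 144 and 306 TPM. Mki67, a marker of cycling cells, was at 19.7, 5.02 and 7.71 TPM in wild-type and at 0.614 and 0.202 TPM in RankCre-ki HSCs, opposite to most of its list. Its log2 difference was -2.88 ± 1.26 (limma, unadjusted p = 0.0518, adjusted p = 0.733).

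Markers of other cells moved in part with these groups. Erythroid and megakaryocyte markers summed to 182 to 411 TPM in wild-type and to 418 and 1698 TPM in RankCre-ki libraries, with 4 to 8 of 11 markers at 1 TPM or more against 9 in each. Multipotent progenitor markers summed to 109 to 114 TPM against 204 and 142 TPM. Granulocyte and monocyte markers overlapped, at 426 to 653 TPM against 513 and 624 TPM, with Elane, Ctsg and Ly6g at 0 in every library. Prtn3 was at 175 to 421 TPM and Lyz2 at 103 to 311 TPM over all libraries. Of the 4 tested markers of this list, only S100a8 had no overlap. It was at 0.0677, 0 and 0 TPM in wild-type and at 8.31 and 12.9 TPM in RankCre-ki HSCs. Macrophage markers summed to 3.59 to 54.3 TPM in wild-type and to 20.9 and 48.5 TPM in RankCre-ki libraries. Adgre1 of that list was at 0, and Cd68 ranged from 0.362 to 46.4 TPM. Lymphoid markers summed to 1.54 to 45.8 TPM against 30.9 and 42.4 TPM, with Cd79a and Dntt at 0. Of the 2 lymphoid markers tested, Nkg7 overlapped, at 0, 35.6 and 45.7 TPM against 26.2 and 22.3 TPM. Klrb1c did not, at 0.0516, 0 and 0 TPM against 4.40 and 12.8 TPM. The part of such other cells in the levels of the replication genes was not tested.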

How the data were processed

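Poly(A) RNA of 5 pools of sorted HSCs was sequenced after full-length template-switching amplification and tagmentation, for which the study's methods give 2 procedures. The authors deposited 1 table of TPM values (length-normalized shares of a library's transcripts, with the same total in each library). The program that made the TPM is not given in the sources used here. The submitters' processing notes name mm10, bcl2fastq 2.20.0 and featureCounts 2.0.1, and no use of strand is stated, so reads of overlapping genes may be shared. The depth reached by each library is unknown, and no counting intervals are given.

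From the 55427 rows, 92 spike-in rows (all at 0) were set aside. Genes at 1 TPM or more in 2 or more libraries entered the test with limma 3.58.1 (R 4.3.3) on log2(TPM + 1), with a mean-variance trend, two-sided, and Benjamini-Hochberg adjustment over all 13981 genes. The threshold was an adjusted p of at most 0.1 with an absolute log2 fold change above 2. A pseudocount of 1 understates the change of low genes. The fit was tested on simulated data. Groups came from the labels. Exon overlaps are from GENCODE M21, and promoter letters from RefSeq (GRCm38.p6), with no promoter for Gins1, Gins2, Gins4, Mcm4, Pole and Rfc2.

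The members and lists were chosen with earlier results of these data known. TPM in every library is given for the MCM, ORC, loading, nucleotide supply and chromatin genes, Cdc45, Gins2, Pcna, the members whose groups do not overlap and the most abundant member of each role. Log2 differences are given for the 4 members with the smallest p in each direction. Of the other lists, Mki67 and the 3 other replication genes with the smallest p in each direction are named. Further genes of these lists were named after their values were seen. Alternatives covered the pseudocount, filter, scaling, trend, blocks, thresholds and leaving out each library. Protein sequences were not analysed here.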

Additional observations from a re-analysis of the deposited data

How the results depend on the processing

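No member passed the threshold under any alternative that kept 2 or more libraries of each group. In these at most 1 of all tested genes passed, so the 0 members cannot be read as a trait of the replication genes. Members at an unadjusted limma p under 0.05 numbered 3 under median-ratio scaling (6.67%, against 7.05% of all tested genes) and 3 under quantile normalization (against 4.41%). There was 1 with nuclear protein-coding genes rescaled (2.22%, against 6.42%) and 1 without a mean-variance trend (against 6.99%). With the name series as a block there were 3 (against 10.1%), and with the replicate block 2 (4.44%, against 3.38%). Without wild-type 1 they numbered 2 (4.44%, against 8.75%) and without wild-type 2 they numbered 1 (2.22%, against 4.53%). Without wild-type 3 they numbered 3 (6.67%, against 1401 of the 13981 tested genes). Leaving out a RankCre-ki library leaves 1 in that group, so no such count is given. Members wholly above wild-type numbered 7 to 16 on leaving out 1 library (15, or 33.3%, without wild-type 3 against 32.7% of all tested genes, and 16, or 35.6%, without RankCre-ki 2 against 33.8%), and members wholly below numbered 6 under median-ratio scaling (13.3%, against 8.74%) and 2 to 13 on leaving out 1 library (13, or 28.9%, without wild-type 1 against 12.3%, 9, or 20.0%, without RankCre-ki 1 against 12.1%, and 4, or 8.89%, without RankCre-ki 2 against 7.60%). Fewer libraries to separate is part of that construction. The median of the members minus that of all tested genes went from -0.71 without wild-type 1 to 0.40 without RankCre-ki 2, and that of licensing minus fork genes from 0.02 without wild-type 2 to 0.46 without RankCre-ki 2, but was -0.029 within series 1 and 0.74 within series 2. Prim1 ranged from -1.96 to 0.45 on leaving out 1 library, the cause of which was not tested. The values within series and the alternatives for the summed ratio and the series term were chosen after seeing the data. The ratio was 1.63 with MCM genes only, 0.999 with ORC genes only, 1.15 within series 1 and 1.58 within series 2, and 1.30 to 1.48 on leaving out 1 library. Members with a series term at an unadjusted limma p under 0.05, higher in series 2, numbered 9 under median-ratio scaling (20.0%, against 4.48% of all tested genes). They numbered 4 without wild-type 1 (8.89%, against 4.01%) and 15 without wild-type 2 (33.3%, against 8.31%). Without wild-type 3 there were 9 (20.0%, against 5.61%). Replicate numbers did not pair the libraries (correlations of -0.380 and -0.195 for numbers 1 and 2), so the replicate block joins libraries that share only a number. With TPM alone, depth could not be weighed.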
